A study of Mus musculus with 3 samples.

Results

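Arg1-positive Gpnmb-low macrophages are macrophages of the heart that carry messenger RNA of arginase 1 (Arg1) but little of the glycoprotein gene Gpnmb. They made up 1770 of 33159 cell barcodes, with 997 in the MI library, 773 in the MI-E library and 0 in the Sham library. Members were chosen by each barcode's molecule counts (unique molecular identifiers, UMIs). A member had at least 200 genes, at most 10% mitochondrial UMIs, at least 5 UMIs of the complement genes C1qa, C1qb and C1qc together, less than 0.3% of its UMIs from S100a8 and S100a9, and 0 UMIs of Cd79a and of the Cd3 genes. It also had at least 2 UMIs of Arg1, at most 1 of Gpnmb, fewer than 5 of Ifit1, Ifit2, Ifit3, Rsad2 and Usp18 together, at most 1 of Lyve1 and Timd4, at most 1 of Mki67 and Top2a, and less than 1% of its UMIs from the class II genes H2-Aa, H2-Ab1 and H2-Eb1. The levels of these genes chose the cells, so they are given as a description and support nothing.

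The mice were C57BL/6J, 8 to 9 weeks old, and the cells were leukocytes of the heart sorted on the surface protein CD45, with 1 droplet library (10x Genomics, 3' end chemistry) for each of Sham, MI and MI-E. The labels do not spell out MI-E, the interval after surgery or how many hearts went into a library, and the same description of coronary ligation accompanies all 3 libraries, Sham included. With 1 library per group, no difference between MI and MI-E has a replicate check and no p-value is given. A level (CPM) is a gene's summed UMIs scaled to a total of 1000000 UMIs over the cells, and bracketed ranges after a fold or share are exact 95% intervals that cover counting error only, not the spread between cells, hearts or libraries. In counts of genes, a gene was higher or lower where the ratio of CPM was at least 1.5-fold. The log2 ratios in the text are of CPM + 1.

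Arginase 1 splits arginine into ornithine and urea, which takes the substrate away from nitric oxide synthase and feeds ornithine into polyamine and proline synthesis. Macrophages of mouse wounds and infarcts switch it on after monocytes enter the tissue. Gpnmb is a membrane glycoprotein of lipid-laden, lysosome-rich macrophages. The other genes that mark the cells described here encode the neutrophil attractant Cxcl3, the epidermal growth factor receptor ligand amphiregulin (Areg), the prostaglandin-forming enzyme cyclooxygenase 2 (Ptgs2) and the matrix protein fibronectin (Fn1).

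Of the genes that were high in the members, Ppbp, Pf4 and Cxcl3, which encode CXC chemokines, lie near each other on chromosome 5 of GRCm38, with 3.917 kb between the starts of Ppbp and Pf4 and 13.7 kb between those of Pf4 and Cxcl3. Areg lies 380 kb beyond Ppbp, measured from Ppbp's start to Areg's end. Their promoters are shown because these neighbouring genes were all higher in the members than in Arg1-undetected cells of both libraries. Each window holds 250 bases before and 50 after the gene's start, from RefSeq (GRCm38.p6), on the plus strand, 5' to 3'. Capitals mark letters that match 1 of 4 motifs on either strand: TGANTCA (AP-1), TGACGTCA (cyclic AMP response element, CRE), GGGNN followed directly by TTTCC (NF-kB) and TTGCNNAA (C/EBP).
Ppbp, chr5:90768268-90768567: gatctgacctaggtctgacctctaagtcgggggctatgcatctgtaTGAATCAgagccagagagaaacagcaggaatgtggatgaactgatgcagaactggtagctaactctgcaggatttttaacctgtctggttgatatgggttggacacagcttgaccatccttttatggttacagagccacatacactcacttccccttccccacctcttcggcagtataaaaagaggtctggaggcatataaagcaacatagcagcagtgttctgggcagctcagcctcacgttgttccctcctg
Pf4, chr5:90772185-90772484: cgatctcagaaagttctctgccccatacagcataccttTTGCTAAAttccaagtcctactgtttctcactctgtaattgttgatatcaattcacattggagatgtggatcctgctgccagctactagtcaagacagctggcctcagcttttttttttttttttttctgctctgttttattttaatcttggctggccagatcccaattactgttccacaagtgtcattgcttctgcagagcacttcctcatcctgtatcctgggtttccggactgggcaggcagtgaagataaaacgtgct
Cxcl3, chr5:90785851-90786150: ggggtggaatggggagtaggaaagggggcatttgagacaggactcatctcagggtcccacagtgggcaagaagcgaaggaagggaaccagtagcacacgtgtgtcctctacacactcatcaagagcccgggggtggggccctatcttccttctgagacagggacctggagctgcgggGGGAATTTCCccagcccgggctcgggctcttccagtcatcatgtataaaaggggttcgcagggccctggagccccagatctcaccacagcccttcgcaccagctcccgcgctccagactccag
Areg, chr5:91139349-91139648: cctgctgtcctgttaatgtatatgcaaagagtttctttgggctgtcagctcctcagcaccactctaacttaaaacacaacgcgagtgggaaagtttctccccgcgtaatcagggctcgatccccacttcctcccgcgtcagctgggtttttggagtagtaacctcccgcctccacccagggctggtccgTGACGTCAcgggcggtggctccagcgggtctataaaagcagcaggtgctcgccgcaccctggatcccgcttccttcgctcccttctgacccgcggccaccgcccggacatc
Of the 4 marked motifs, each window held a different one: AP-1 in Ppbp, C/EBP in Pf4, NF-kB in Cxcl3 and the CRE in Areg. Of 32851 promoter windows of the same length in the RefSeq table, 7.81% hold the AP-1 letters, 10.8% the C/EBP letters, 1.63% the NF-kB letters and 1.79% the CRE letters. The hypoxia response core ACGTG, also searched, is in 19.6% of windows and was left in lower case. The windows of Ppbp, Pf4 and Cxcl3 share it, and that of Areg lacks it. Of other windows searched, those of Ptgs2 and Ctsl and 1 of Spp1 held C/EBP letters, and those of Hilpda AP-1 letters. Those of Pdpn and Ccl6 and the other of Spp1 held none of the 4 marked motifs. A match is a description of the letters and not evidence of binding.

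Median depth over all deposited barcodes was 9604 UMIs for MI, 7287 for MI-E and 2727 for Sham. Members were deep in both libraries, with medians of 10566 UMIs and 2667 genes per cell in MI and 11199 UMIs and 2787 genes in MI-E. Their median mitochondrial share was 1.14% in MI and 1.67% in MI-E. The MI and MI-E libraries shared 26 barcode sequences, Sham and MI 35, and Sham and MI-E 45. Of those shared with MI-E, 4 were MI members, and 0 barcodes were members in both. Of 12 macrophage identity genes, 0 were at 0 UMIs in either library. That does not test the macrophage label, because UMIs were summed over all members and the rule chose them by C1q. Of 8 fibroblast markers, 0 were at 0 as well. The F4/80 gene Adgre1 stood at 201 CPM in MI and 221 in MI-E members, the growth factor receptor gene Csf1r at 249 and 299, the scavenger receptor gene Cd68 at 606 and 757, and the lysozyme gene Lyz2 at 6479 and 6659. In lymphocytes, which should lack these genes, Adgre1 stood at 9.79 and 24.3 CPM. The 12 genes together summed to 3902 CPM in MI and 2625 in MI-E lymphocytes, against 17936 and 18280 in members. In neutrophils they summed to 15242 CPM in MI and 12922 in MI-E, so this sum does not set members apart from neutrophils. The source of these UMIs in lymphocytes was not tested.

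Arg1 itself, a gene of the rule, was spread widely over the members. It stood at 1102 CPM in MI and 1530 in MI-E members, with a median of 7 UMIs per cell in MI and 10 in MI-E and maxima of 126 and 143. Just inside the threshold, 152 MI and 86 MI-E members had exactly 2 UMIs of Arg1, at median depths of 9853 and 9565 UMIs. Just outside it, 240 MI and 187 MI-E cells that met the other criteria had exactly 1, at median depths of 9416.5 and 9031 UMIs. Exactly 1 UMI of Gpnmb was present in 228 MI and 201 MI-E members, and 137 and 104 cells lay just outside with exactly 2. Cells that should lack Arg1 held some of it: at least 2 UMIs were found in 3.74% of MI and 1.17% of MI-E lymphocytes, at median depths of 3217 and 2794 UMIs. The highest counts there were 34 and 45 UMIs, doublets were kept, and the source of these UMIs was not tested.

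Members were a smaller share of the sorted cells in MI-E than in MI, but not of the macrophages. Of cells that passed the quality limits, 997 of 8831 were members in MI, 11.3% (10.6% to 11.97%, Clopper-Pearson), and 773 of 12279 in MI-E, 6.30% (5.87% to 6.74%). The share was 1.79-fold lower in MI-E (1.63 to 1.97). Sham had 0 of 11105 cells, which allows a share of up to 0.0270% by 3 counts of the total and 0.0332% by the Clopper-Pearson bound. Sham cells were shallower, with a median of 2760 UMIs against 9789 in MI and 7494 in MI-E, and the part of depth in this 0 was not tested. Among C1q macrophages, the cells that passed the complement, S100, Cd79a and Cd3 limits, members were 17.6% of 5658 in MI (16.6% to 18.6%) and 19.5% of 3954 in MI-E (18.3% to 20.8%). That is a ratio of 1.11 (1.01 to 1.22), whose interval reached 1 when Gpnmb had to be at 0 (1.06, 0.954 to 1.19). The sorted cells around them differed: by the marker limits used here, neutrophils numbered 275 in MI and 2170 in MI-E, and lymphocytes 107 and 515. A share of sorted cells moves with all other cells in the sort, so fewer members and more of other cells cannot be told apart.

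**Figure D1:**
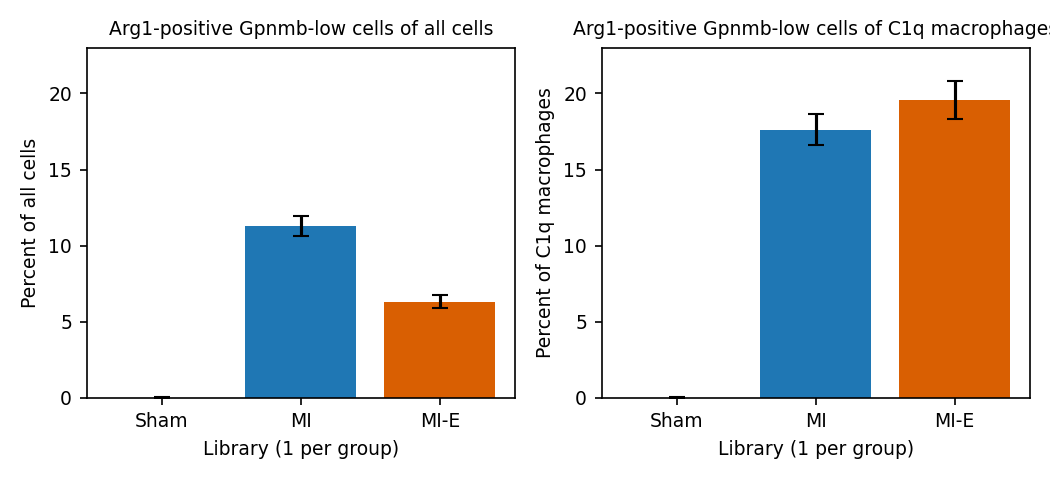
Share of Arg1-positive Gpnmb-low cells in each library, as percent of all cells that passed the quality limits (left) and of C1q macrophages (right), with exact 95% counting intervals as error bars. The share of all cells is 11.3% in MI and 6.30% in MI-E, the share of C1q macrophages 17.6% and 19.5%, and both are 0 in Sham.

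To see what accompanies Arg1, members were set beside Gpnmb-low macrophages of the same library that met every other criterion but had 0 UMIs of Arg1 (860 cells in MI, 712 in MI-E). In both libraries the members had more RNA of Spp1, Fn1 and several chemokine genes and less of class II antigen presentation genes. Of 8038 genes measured, 175 (2.18%) were at least 1.5-fold higher in MI and 273 (3.4%) in MI-E, and 96 (1.19%) in both. On the lower side were 290 (3.61%) in MI, 413 (5.14%) in MI-E and 176 (2.19%) in both. The median log2 ratio over all genes was -0.03 in MI and -0.01 in MI-E. The Arg1 rule defines this contrast, so the values are a description without a test.

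Osteopontin (Spp1), a matrix-associated cytokine, stood at 7392 CPM in MI members against 2363 in Arg1-undetected cells, and at 8403 against 2631 in MI-E, 3.13-fold and 3.19-fold higher. Fibronectin (Fn1) stood at 1073 against 332 CPM in MI and at 1117 against 308 in MI-E, 3.23-fold and 3.63-fold. Podoplanin (Pdpn), a membrane mucoprotein that binds the platelet receptor Clec2, stood at 186 against 57.4 CPM in MI and 306 against 72.3 in MI-E, 3.23-fold and 4.23-fold. All 3 genes were thus more than 3-fold higher in each library.

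The neighbouring chemokine genes of chromosome 5 were higher too. Ppbp, which encodes the precursor of neutrophil-activating peptide 2 and is best known from platelets, stood at 67.1 against 4.48 CPM in MI and at 228 against 14.3 in MI-E, 15.0-fold and 16.01-fold higher. Over cells with 5000 to 15000 UMIs its log2 ratio in MI was 4.33 in place of 3.64. Platelet factor 4 (Pf4), which mouse macrophages also make, stood at 7633 against 2673 CPM in MI and 7373 against 1853 in MI-E, 2.86-fold and 3.98-fold. Cxcl3 stood at 828 against 376 CPM in MI and 983 against 281 in MI-E, 2.20-fold and 3.50-fold. Cxcl1 and Cxcl2, further along the same chromosome, were 1.43-fold and 1.16-fold higher in MI members and 1.78-fold and 1.34-fold in MI-E, so Cxcl2, the most abundant of them at 16525 and 19620 CPM, did not reach 1.5-fold. The CC chemokine gene Ccl6 stood at 1334 against 574 CPM in MI and 2049 against 715 in MI-E.

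Among growth factors and enzymes, Areg stood at 228 against 114 CPM in MI and 208 against 90.9 in MI-E, 2.00-fold and 2.29-fold higher. Ptgs2 was 1.55-fold higher in MI (638 against 413 CPM) and 1.66-fold in MI-E (884 against 532 CPM). The angiogenic factor gene Vegfa, which hypoxia induces, was 1.68-fold and 1.60-fold higher. The lipid droplet protein gene Hilpda, another hypoxia-induced gene, stood at 583 against 323 CPM in MI and 401 against 180 in MI-E. The lysosomal protease gene Ctsl was 1.78-fold and 2.02-fold higher and the cell cycle regulator gene Rgcc 1.71-fold and 1.73-fold. Lower-level genes on the same side were the arginine transporter gene Slc7a2 (10.7 CPM in members of each library, 7.001-fold and 2.83-fold higher) and the coagulation factor gene F7 (27.2 and 28.4 CPM, 4.34-fold and 3.29-fold).

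**Figure D2:**
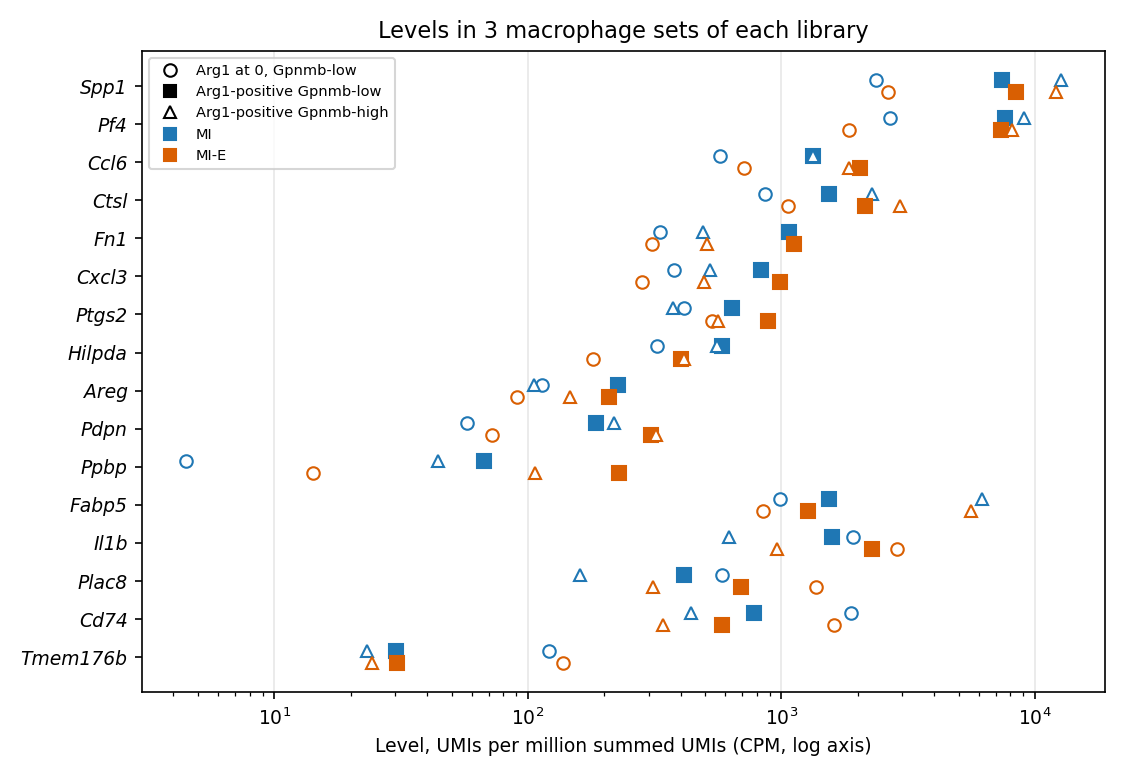
Level of 16 genes in CPM on a log axis in Arg1-undetected Gpnmb-low cells (open circles), Arg1-positive Gpnmb-low cells (filled squares) and Arg1-positive Gpnmb-high cells (open triangles) of MI (blue) and MI-E (orange), 1 pooled value per library. Spp1, Pf4, Fn1, Cxcl3 and Ppbp lie higher in the squares than in the circles of both libraries, Fabp5 is highest in the triangles, and Cd74 and Tmem176b are highest in the circles.

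Antigen presentation lay on the other side. Cd74, the invariant chain that guides class II molecules, stood at 782 CPM in MI members against 1881 in Arg1-undetected cells, and at 584 against 1617 in MI-E, 2.41-fold and 2.77-fold lower. The class II loading factor gene H2-DMa was 1.79-fold and 1.97-fold lower. Each of the 3 measured class II genes outside the rule was lower in both libraries, and H2-Aa, H2-Ab1 and H2-Eb1, which the rule limits to below 1% in both sets, were 2.48-fold to 2.59-fold lower in MI and 2.82-fold to 3.08-fold lower in MI-E. Tmem176b, a membrane protein gene of dendritic cells and macrophages, was 4.01-fold lower in MI (30.3 against 121 CPM) and 4.54-fold in MI-E (30.4 against 138 CPM).

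Other genes lower in both were the phospholipid transfer protein gene Pltp (2.40-fold and 2.52-fold), the tetraspanin gene Cd81 (2.18-fold and 2.69-fold), the lectin receptor gene Cd72 (1.95-fold and 2.41-fold), Plbd1 (1.84-fold and 2.24-fold) and the heat shock gene Hspa1a (2.06-fold in each). The fatty acid carrier gene Fabp4 was 1.98-fold lower in MI members and 3.03-fold in MI-E. This gene's value moved with the depth of the cells: over cells with 5000 to 15000 UMIs its log2 ratio was -0.39 in MI and -0.94 in MI-E, against -0.98 and -1.58 over all. The growth factor gene Igf1 was 2.56-fold and 2.90-fold lower, and the monocyte genes Ly6c2 and Ms4a4c were each 1.68-fold lower in MI and 2.54-fold and 1.82-fold lower in MI-E.

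By list, 8 of 30 matrix and proteolysis genes were at least 1.5-fold higher than in Arg1-undetected cells in both libraries and 2 lower (medians 0.35 in MI and 0.34 in MI-E). The neutrophil chemokine list had 3 of 6 higher and 0 lower, with medians of 1.20 and 1.32. Growth and angiogenic factor genes went both ways, with 4 of 16 higher and 3 lower (medians -0.12 and -0.11). Glycolysis and hypoxia genes had 4 of 24 higher and 0 lower (medians 0.51 and 0.33), among them the glycolytic enzyme gene Pgk1 at 493 CPM in MI and 549 in MI-E members, 1.69-fold and 1.64-fold higher. Interferon-induced genes had 0 of 22 higher and 2 lower (medians -0.38 and -0.39), after leaving out the 5 that the rule limits. Of the arginase and polyamine list, 1 of 19 genes besides Arg1 was higher, the transporter gene Slc7a2, and the medians were 0.03 and -0.06. Ornithine decarboxylase (Odc1), which turns ornithine into polyamines, was 1.39-fold and 1.58-fold higher.

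For several genes, members with more Arg1 differed further from the Arg1-undetected cells. The gate was split by Arg1 UMIs into 2 to 3, 4 to 9, and 10 or more, which held 270, 326 and 401 cells in MI and 157, 219 and 397 in MI-E. Cells with 10 or more were 40.2% of members in MI and 51.4% in MI-E. From 0 UMIs through these bins, Spp1 stood at 2363, 4723, 6707 and 9440 CPM in MI and at 2631, 5743, 7279 and 9741 in MI-E. Fn1 stood at 332, 592, 869 and 1501 CPM in MI and at 308, 578, 816 and 1423 in MI-E. Both genes were thus higher in each bin than in the bin before it, in both libraries.

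Ccl6 stood at 574 CPM in cells without Arg1 and 1790 in those with 10 or more in MI, and at 715 and 2625 in MI-E. Ptgs2 stood at 413 and 719 CPM at these ends in MI and at 532 and 1007 in MI-E. Areg was not evenly graded: its level was 114, 211, 161 and 286 CPM in MI and 90.9, 146, 150 and 255 in MI-E. Ppbp in MI-E was concentrated at the top, with 14.3, 67.8, 51.5 and 361 CPM, while MI had 4.48, 29.8, 58.3 and 95.1.

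In the other direction, Cd74 stood at 1881, 964, 904 and 588 CPM in MI and at 1617, 868, 676 and 455 in MI-E. The classical monocyte gene Ly6c2 stood at 590, 363, 293 and 164 CPM in MI-E and at 158, 99.0, 111 and 78.0 in MI. The Fc receptor-like gene Fcrls was highest at 2 to 3 UMIs, with 303 CPM in MI and 234 in MI-E, and lowest at 10 or more, with 151 and 117. The interleukin 1 beta gene Il1b was highest in the cells without Arg1 and lowest at 2 to 3 UMIs, and rose again over the further bins. It stood at 1913, 1472, 1527 and 1684 CPM in MI and at 2864, 1814, 2317 and 2409 in MI-E. Depth moved with these bins, with median UMIs per cell of 8534, 9725, 10086.5 and 11705 in MI and 8741, 9700, 10575 and 12264 in MI-E, and its part in the gradient was not tested. Over cells with 5000 to 15000 UMIs and in the other alternatives, 21 genes chosen by rank or as markers kept their direction against Arg1-undetected cells in 168 of 168 values. So did 8 list genes, Ppbp, Vegfa, Slc7a2, F7, Igf1, Pgk1, Ly6c2 and H2-DMb1, in 64 of 64. Of the 168 values, 69 lay outside the main counting interval, 18 of them over cells with 5000 to 15000 UMIs. Most of these genes were picked by their ratios in the same cells, so a kept direction is no independent check.

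**Figure D3:**
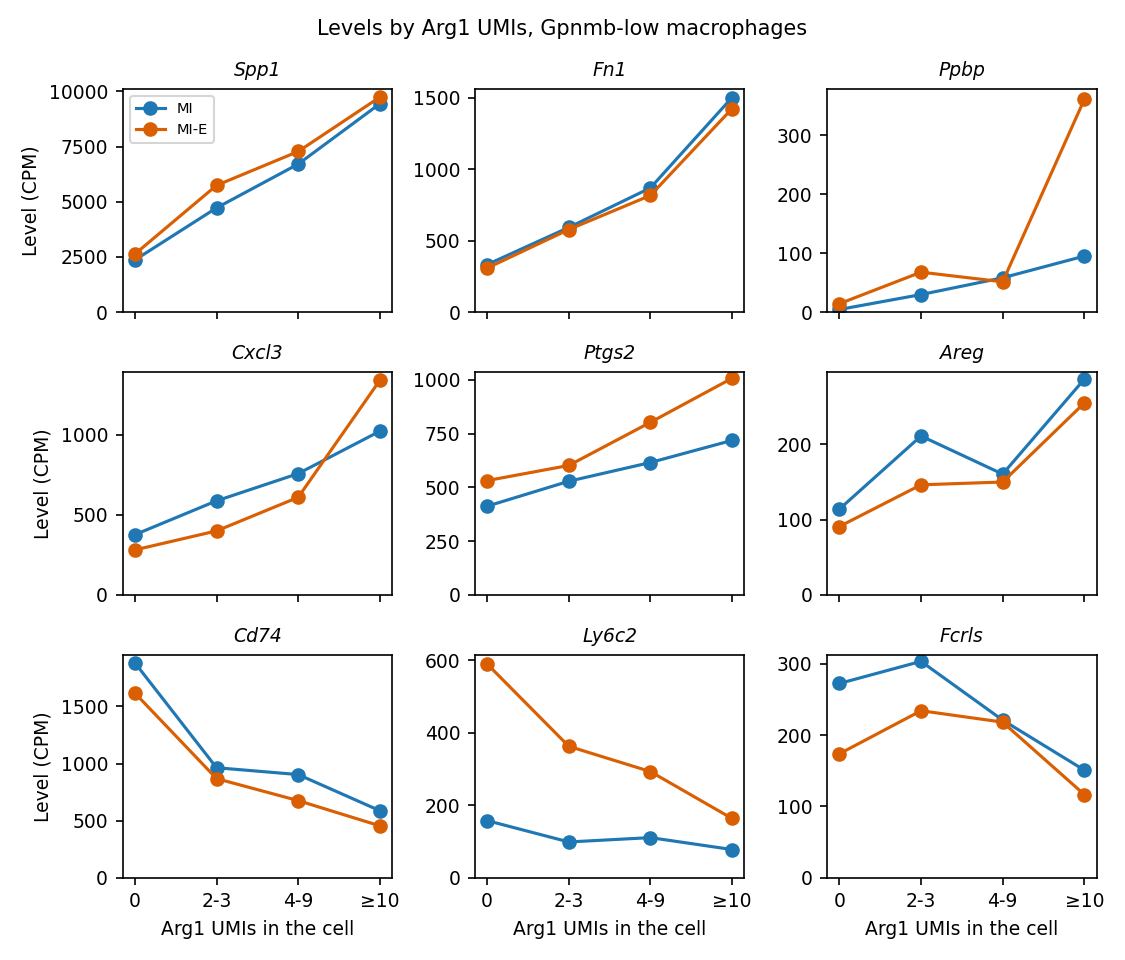
Level in CPM of 9 genes in Gpnmb-low macrophages with 0, 2 to 3, 4 to 9 and 10 or more Arg1 UMIs, 1 pooled value per bin for MI (blue) and MI-E (orange). Spp1 and Fn1 are higher in each further bin, Ppbp of MI-E reaches 361 CPM in the last bin, and Cd74 is lower in each further bin.

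The members were not uniform in their other marker genes. After each cell was thinned to 3000 UMIs, which left out 34 MI and 18 MI-E members, Fn1 was seen in 77.6% of MI and 82.0% of MI-E members (91.3% and 94.8% unthinned). Cxcl3 was seen in 57.3% and 65.2% (73.3% and 82.8% unthinned), Ptgs2 in 57.3% and 67.5% (77.2% and 84.3%), and Areg in only 13.5% and 15.4% (18.4% and 23.5%). In lymphocytes, thinned in the same way, Fn1 was seen in 10.2% and 10.5%, and Cxcl3 in 8.47% and 11.3%. Ptgs2 was seen there in 13.6% and 14.3%, and Areg in 1.69% and 1.68%. The members' shares lay above those of lymphocytes for each gene. The lymphocyte shares rest on 59 MI and 238 MI-E cells, with 48 and 277 left out, and Areg was seen in 1 and 4 of them. Areg was thus detected in few members and Fn1 in most.

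Some of these genes were found together more often than others. Ptgs2 was seen in 66.8% of MI members with Cxcl3 and in 44.5% of those without, and in 75.6% and 52.5% in MI-E. Il1b was seen in 68.3% of MI members with Ptgs2 and 37.7% of those without, and in 77.8% and 55.5% in MI-E. Ppbp and Pdpn also went together, with Pdpn in 51.1% of MI members with Ppbp against 33.1% without, and 58.1% against 45.8% in MI-E. Il1b was less frequent with Ppbp than without it in MI, at 42.2% against 56.6%, and at 67.4% against 71.2% in MI-E. Fn1 showed small differences with Ptgs2 (80.6% of MI members with Ptgs2 against 73.5% without, 83.7% against 78.4% in MI-E). These are shares of cells within 1 library, and cells of a library are not replicates.

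Arg1-positive cells with at least 2 UMIs of Gpnmb (841 in MI, 558 in MI-E) met the same criteria otherwise and show what low Gpnmb goes with. They were deeper, with medians of 13534 and 14313 UMIs. Of 7981 genes, 252 (3.16%) were at least 1.5-fold higher in members in MI, 170 (2.13%) in MI-E and 102 (1.28%) in both. On the lower side were 199 (2.49%), 295 (3.7%) and 115 (1.44%). The medians over all genes were 0.01 and -0.03. The members had less RNA of lipid handling and lysosome genes and more of inflammatory and monocyte genes. The Gpnmb rule defines this contrast, so the values are a description without a test. The alternative settings were not run on it, and the part of depth was not tested.

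The fatty acid binding protein gene Fabp5 stood at 1546 CPM in MI members against 6177 in Gpnmb-high cells and at 1270 against 5597 in MI-E, 3.995-fold and 4.41-fold lower. The lipoprotein lipase gene Lpl was 2.92-fold and 2.30-fold lower, Fabp4 2.56-fold and 2.88-fold, Syngr1 2.82-fold and 3.36-fold, Serpinb6a 2.44-fold and 2.63-fold, and the chemokine gene Ccl8 2.84-fold and 3.21-fold. In the lipid-handling Trem2 list, 11 of 22 genes were lower in both libraries and 0 higher (medians -0.60 and -0.63), and in the lysosome list 7 of 24 were lower and 0 higher (medians -0.41 in each). Spp1, in contrast to its place against Arg1-undetected cells, was 1.71-fold lower than in Gpnmb-high cells in MI and 1.43-fold in MI-E.

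Higher in the members were Il1b, at 1581 against 622 CPM in MI and 2283 against 961 in MI-E (2.54-fold and 2.38-fold), and Fn1, at 1073 against 491 and 1117 against 508 CPM (2.19-fold and 2.20-fold). The monocyte gene Plac8 was 2.57-fold and 2.22-fold higher, the monocyte chemokine receptor gene Ccr2 2.00-fold and 1.74-fold, the protease inhibitor gene Slpi 1.97-fold and 1.91-fold, and Cd74 1.78-fold and 1.71-fold. Of the classical monocyte list, 6 of 18 genes were higher and 0 lower (medians 0.79 and 0.46), and of the inflammatory cytokine list 6 of 21 were higher and 0 lower (medians 0.52 and 0.43). The leukotriene C4 synthase gene Ltc4s was 2.72-fold and 3.10-fold higher. Of the marker genes, Cxcl3 was 1.58-fold and 1.99-fold higher and Ptgs2 1.71-fold and 1.57-fold, while Areg was 2.16-fold higher in MI and 1.42-fold in MI-E.

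The main comparison asks how the members of MI-E differed from those of MI. Members of the MI-E library had more RNA of Ppbp, Il1rn, Il1a and several monocyte and interferon-induced genes, and less of Fabp4, the metallothionein genes Mt1 and Mt2, and Tmsb10. Of 7947 genes measured in members, 358 (4.5%) were at least 1.5-fold higher in MI-E and 300 (3.78%) lower, and the median log2 ratio over all of them was 0.06. With TMM factors the calls were 258 higher and 370 lower, so that 41.1% of calls were higher in place of 54.4%. In Arg1-undetected Gpnmb-low cells of the same libraries, 409 of these genes (5.15%) were higher and 361 (4.54%) lower. Of the members' higher calls 172 (48.0%, or 42.1% of the calls in Arg1-undetected cells) were shared, of the lower calls 138 (46.0%, or 38.2%), and 2 and 4 were called in opposite directions. Ratios in Arg1-undetected cells are given beside those of the members for comparison.

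Ppbp was furthest on the higher side, at 67.1 CPM in MI and 228 in MI-E members, 3.41-fold higher (3.13 to 3.71). In Arg1-undetected cells it was 3.19-fold higher, from a level of 4.48 CPM. Few cells carried much of it: 21 MI members and 49 MI-E members had at least 10 UMIs of Ppbp, and they held 48.6% and 77.1% of its UMIs. Without these cells Ppbp stood at 35.3 CPM in MI and 56.8 in MI-E. Their median Arg1 count was 17 UMIs in MI and 30 in MI-E, against 7 and 8 in members without Ppbp. Of 10 platelet genes, a list added after the values were seen, 4 were at 0 in MI members and 3 in MI-E, and the list's summed level was 3.29 and 2.56 CPM.

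Monocyte genes were next. Chil3, a chitinase-like protein gene of monocytes and alternatively activated macrophages, stood at 302 CPM in MI and 800 in MI-E members, 2.65-fold higher (2.54 to 2.76), and was 2.47-fold higher in Arg1-undetected cells. Chil3 was also seen in 6.78% of thinned MI and 19.7% of thinned MI-E lymphocytes, against 42.1% and 67.7% of thinned members. Its source in lymphocytes was not tested. Ly6c2, the surface protein gene that marks classical monocytes, stood at 93.7 and 232 CPM, 2.48-fold higher (2.30 to 2.67), and was 3.74-fold higher in Arg1-undetected cells. Ms4a4c stood at 108 and 221 CPM, 2.04-fold higher, and Plac8 at 412 and 693 CPM, 1.68-fold. In Arg1-undetected cells they were 2.20-fold and 2.36-fold higher. Of 19 classical monocyte genes 6 were higher and 1 lower in members, with a median of 0.24, while in Arg1-undetected cells 12 were higher and 0 lower, with a median of 0.85.

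Interferon-induced genes were also higher, although the rule keeps out cells rich in 5 of them. Irf7, the master regulator of the type I interferon response, stood at 121 CPM in MI and 284 in MI-E members, 2.35-fold higher (2.20 to 2.51), and was 2.49-fold higher in Arg1-undetected cells. The nucleic acid sensor gene Zbp1 stood at 80.0 and 154 CPM, 1.92-fold higher, Ly6e at 605 and 1013 CPM, 1.67-fold, and the antiviral enzyme gene Oas3 at 20.7 and 50.2 CPM, 2.43-fold. In Arg1-undetected cells these 3 genes were 2.23-fold, 1.69-fold and 2.28-fold higher. Of 22 measured genes of this list 9 were higher and 0 lower, with a median of 0.49 (0.62 in Arg1-undetected cells). Irf7 was seen in 18.6% of thinned MI and 29.4% of thinned MI-E lymphocytes, against 24.5% and 48.9% of thinned members.

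In the interleukin 1 family, the receptor antagonist gene Il1rn stood at 287 CPM in MI and 543 in MI-E members, 1.89-fold higher (1.81 to 1.98), and was 1.57-fold higher in Arg1-undetected cells. The cytokine gene Il1a stood at 66.7 and 121 CPM, 1.82-fold higher (1.65 to 1.99), whereas in Arg1-undetected cells it stood at 42.6 and 39.2 CPM. Il1b stood at 1581 and 2283 CPM, 1.44-fold higher, and was 1.497-fold higher in Arg1-undetected cells. It was also seen in 18.6% of thinned MI and 30.3% of thinned MI-E lymphocytes, against 55.2% and 70.6% of thinned members. Of 21 inflammatory cytokine genes 5 were higher and 0 lower, with a median of 0.36. The remaining genes of the 12 highest were the long non-coding RNA Neat1 (182 and 361 CPM, 1.98-fold), the surface glycoprotein gene Cd24a (57.3 and 106 CPM, 1.85-fold), the small GTPase gene Rab20 (149 and 272 CPM, 1.82-fold) and the glycosyltransferase gene B4galt5 (77.5 and 139 CPM, 1.79-fold). In Arg1-undetected cells Neat1 was 1.75-fold, Cd24a 1.82-fold, Rab20 1.60-fold and B4galt5 1.71-fold higher.

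**Figure D4:**
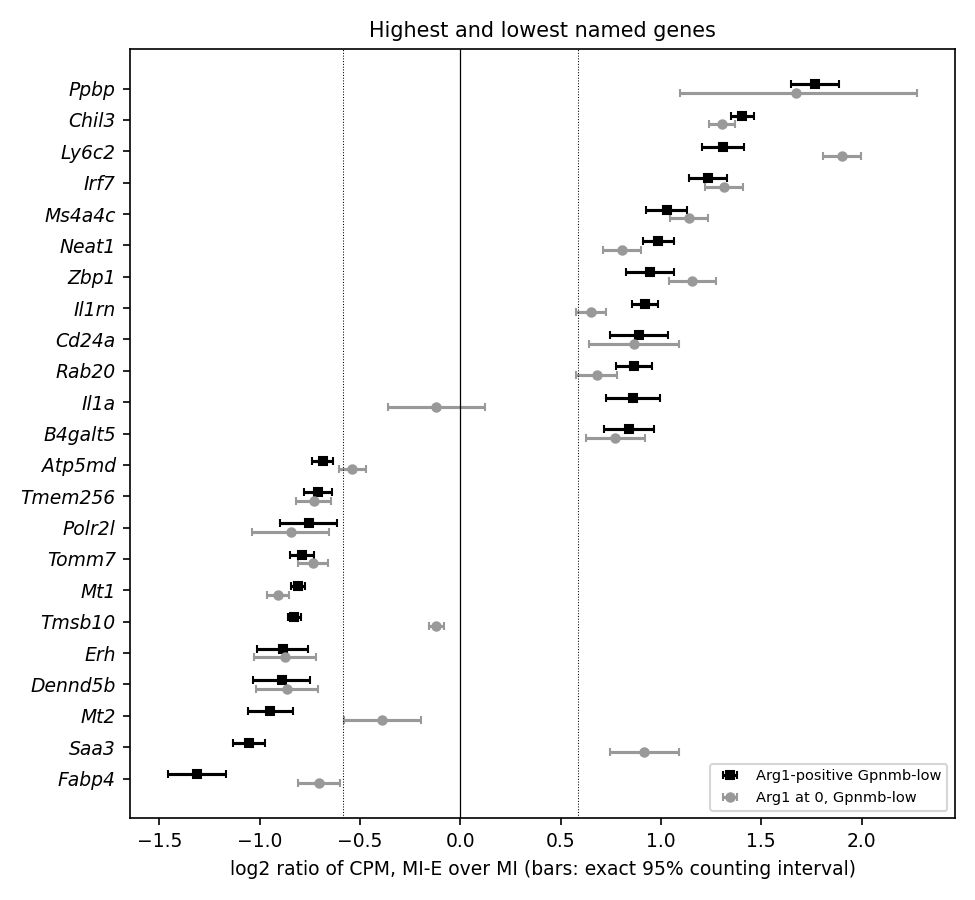
log2 ratio of CPM, MI-E over MI, for the 12 highest and 11 of the 12 lowest named genes in Arg1-positive Gpnmb-low cells (black squares) and Arg1-undetected Gpnmb-low cells (grey circles), with exact 95% counting intervals and dotted lines at 1.5-fold. Ppbp is 3.41-fold higher and Fabp4 2.49-fold lower in MI-E members, and Il1a, Tmsb10 and Saa3 lie apart in the 2 sets.

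On the lower side, Fabp4 stood at 140 CPM in MI and 56.3 in MI-E members, 2.49-fold lower (2.25 to 2.75), and was 1.63-fold lower in Arg1-undetected cells. In lymphocytes, where its source was not tested, Fabp4 was higher in MI-E, at 7.84 CPM in MI and 143 in MI-E. The zinc-binding metallothionein gene Mt1 stood at 1722 and 982 CPM, 1.75-fold lower (1.71 to 1.80), and Mt2 at 191 and 99.2 CPM, 1.93-fold lower (1.79 to 2.09). In Arg1-undetected cells they were 1.88-fold and 1.31-fold lower. The actin-binding peptide gene Tmsb10 stood at 2216 and 1248 CPM, 1.77-fold lower (1.74 to 1.81), against 1823 and 1678 CPM in Arg1-undetected cells.

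Saa3, an acute-phase gene of activated macrophages, stood at 384 CPM in MI and 185 in MI-E members, 2.07-fold lower (1.96 to 2.19), but was 1.89-fold higher in MI-E among Arg1-undetected cells (59.2 and 112 CPM). Its value moved with the cells used and their weights: the log2 ratio in members was -1.05, but -0.23 over members with 5000 to 15000 UMIs and -1.92 with each cell weighted equally. Saa3 was seen in 13.2% of thinned MI and 11.8% of thinned MI-E members (22.2% and 21.9% unthinned), against 1.69% and 2.10% of lymphocytes. Further genes among the 12 lowest were Dennd5b (118 and 63.8 CPM, 1.86-fold), Erh (145 and 78.3 CPM, 1.85-fold), the mitochondrial import gene Tomm7 (598 and 346 CPM, 1.73-fold), the RNA polymerase subunit gene Polr2l (108 and 63.8 CPM, 1.69-fold), Tmem256 (430 and 263 CPM, 1.64-fold) and the ATP synthase component gene Atp5md (731 and 454 CPM, 1.61-fold). In Arg1-undetected cells Dennd5b was 1.82-fold, Erh 1.83-fold, Tomm7 1.66-fold, Polr2l 1.80-fold, Tmem256 1.66-fold and Atp5md 1.45-fold lower.

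The marker genes of the members differed little between the libraries. Fn1 stood at 1073 CPM in MI and 1117 in MI-E, a ratio of 1.04 (1.01 to 1.07) that turned to the other side with each cell weighted equally (log2 ratio -0.12), with Arg1 at 4 or more (-0.0068) and without Scrublet calls (-0.0036). Areg stood at 228 and 208 CPM, 1.09-fold lower. Cxcl3 was 1.19-fold higher in MI-E members (828 and 983 CPM), whereas in Arg1-undetected cells it was 1.34-fold lower (376 and 281 CPM). Ptgs2 stood at 638 and 884 CPM, 1.38-fold higher. None of these 4 reached 1.5-fold. Spp1 was 1.14-fold higher and Pf4 1.04-fold lower.

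Matrix genes leaned towards MI-E, with 8 of 30 higher, 0 lower and a median of 0.22 (0.35 in Arg1-undetected cells). Thrombospondin 1 (Thbs1), a matricellular protein, stood at 1212 CPM in MI and 2100 in MI-E members, 1.73-fold higher, Ecm1 at 368 and 625 CPM, 1.70-fold, and the protease inhibitor gene Timp1 at 64.9 and 105 CPM, 1.62-fold. In Arg1-undetected cells Thbs1 was 1.56-fold, Ecm1 1.44-fold and Timp1 3.53-fold higher. Over members with 5000 to 15000 UMIs the log2 ratio of Timp1 was 0.36 in place of 0.68, under 1.5-fold. Fibroblast genes moved with them: the 8 fibroblast markers summed to 25.4 CPM in MI and 104 in MI-E members and to 87.0 and 504 CPM in Arg1-undetected cells, and their part in these values was not tested. None of the 8 was at 0 in either library. Timp1, which fibroblasts also make, stood at 11.8 CPM in MI and 225 in MI-E lymphocytes, while Thbs1 stood at 182 and 205 CPM there and Ecm1 at 56.8 and 63.8 CPM.

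Cell cycle genes leaned towards MI, with 0 of 13 higher, 6 lower and a median of -0.47 (-0.38 in Arg1-undetected cells). The tubulin-binding protein gene Stmn1 stood at 64.0 CPM in MI and 28.7 in MI-E members, 2.23-fold lower, and the replication licensing gene Mcm5 at 22.9 and 12.2 CPM, 1.89-fold. In Arg1-undetected cells Stmn1 and Mcm5 were 1.76-fold and 1.75-fold lower. With CPM + 10 the log2 ratio of Mcm5 in members was -0.57, under 1.5-fold. The rule caps Mki67 and Top2a in both libraries. Respiratory chain genes had 0 of 20 higher, 2 lower and a median of -0.35 (-0.30 in Arg1-undetected cells), and Ndufa1, a subunit of complex I, stood at 386 and 240 CPM, 1.61-fold lower, and was 1.52-fold lower in Arg1-undetected cells. Lysosome genes had 0 of 22 past 1.5-fold and a median of 0.23, lipid-handling Trem2 genes 0 higher and 1 of 22 lower (median -0.02), and glycolysis and hypoxia genes 1 higher and 3 of 24 lower (median -0.13). The resident macrophage list had 0 of 16 higher and 2 lower in members (median -0.10), against 1 higher and 4 lower in Arg1-undetected cells (median -0.49).

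The glucocorticoid-induced gene Fkbp5, a co-chaperone of steroid receptors, was further apart than any gene in the plot of ratios, but its level lay under their limit of 100 CPM. It stood at 60.1 CPM in MI and 11.9 in MI-E members, 5.03-fold lower (4.12 to 6.21), and was 4.89-fold lower in Arg1-undetected cells. Tsc22d3, another target, stood at 33.5 and 23.5 CPM, 1.43-fold lower. Of the 15 measured glucocorticoid genes 3 were lower, Fkbp5, Mt1 and Mt2, and 1 was higher, with a median of -0.04. The receptor gene Mertk, which binds dying cells, was 2.58-fold lower in MI-E (37.8 and 14.6 CPM), and 2.01-fold lower in Arg1-undetected cells. Fcgr1, a high-affinity antibody receptor gene, was 1.69-fold higher (277 and 468 CPM), and 1.60-fold in Arg1-undetected cells.

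**Figure D5:**
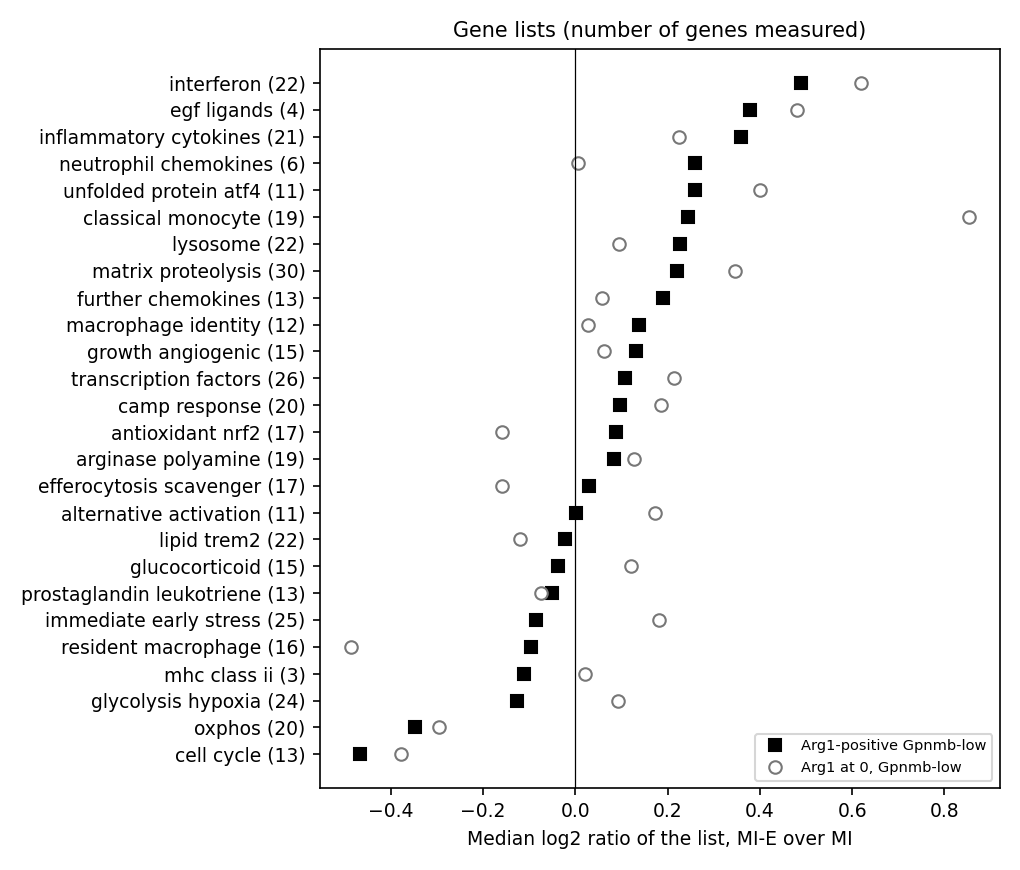
Median log2 ratio of CPM + 1, MI-E over MI, for each gene list, with the number of genes measured in brackets, in Arg1-positive Gpnmb-low cells (squares) and Arg1-undetected Gpnmb-low cells (open circles). The interferon list lies highest in members at 0.49 and the cell cycle list lowest at -0.47, and the classical monocyte list lies at 0.24 in members and 0.85 in Arg1-undetected cells.

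RNA of other cell types was low in the members. Summed levels of marker lists were 107 CPM in MI and 187 in MI-E for neutrophils, 63.9 and 78.5 for T and natural killer cells, 11.7 and 13.8 for B cells, 25.7 and 22.4 for endothelial cells, 20.9 and 34.9 for cardiomyocytes, and 4.18 and 7.25 for dendritic cells. Genes at 0 UMIs in MI and MI-E members numbered 2 and 0 of 10 for neutrophils, 4 and 5 of 11 for T and natural killer cells, 2 and 1 of 7 for B cells and 2 and 1 of 9 for dendritic cells. Of the 7 endothelial and 9 cardiomyocyte genes, 0 were at 0 in either library. The rule fixed 3 of the T and natural killer genes and 1 of the B cell genes at 0 in advance. It also limits 2 of the neutrophil genes, so the levels and zeros of these 3 lists are a description only. Red cell genes were higher in MI, at 181 CPM against 17.7 in MI-E. Scrublet, a doublet caller, marked 89 MI members at the expected rate and 8 MI-E members at its automatic threshold, and 91 MI-E members at the expected rate. Among Gpnmb-low macrophages without Arg1, Sham had 1244 cells with a median of 3489.5 UMIs, in which Spp1 stood at 37.5 CPM and Fn1 at 8.97 CPM, while Pf4 stood at 4308 CPM and Areg at 105 CPM. Areg and Pf4 were thus present in cells of the Sham heart that had no Arg1.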

How the data were processed

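Leukocytes sorted on CD45 from Sham, MI and MI-E hearts gave 1 single-cell library each. The authors aligned reads and counted UMIs with Cell Ranger 5.0.1 on mm10, per the submitters' processing notes, and the deposited values are raw counts for 32285 genes per barcode. Total counts of members were 11257399 in MI and 9376631 in MI-E. Members were chosen by thresholds on these counts, without clustering; doublets were kept, with Scrublet (scanpy 1.11.5) removed as an alternative. Counts were summed per library and cell set, turned into CPM and compared as log2 ratios of CPM + 1 over genes with a mean of at least 5 CPM. Folds and counts of genes past 1.5-fold used ratios of CPM. With 1 library per group there was no test; edgeR 4.0.16 gave TMM factors for an alternative. Intervals used scipy 1.17.1. Ratio and interval code was tested on simulated data. Comparison sets used the same thresholds with Arg1 at 0 or Gpnmb of at least 2. Background was read in lymphocytes (at least 2 UMIs of Cd79a or of the Cd3 genes, at most 1 of C1q, S100a8 and S100a9 below 0.3%) and neutrophils (S100a8 and S100a9 at 1% or more). Members, gene lists and thresholds were chosen with earlier results of these data known. Genes named were the 5 markers, the 12 highest and 12 lowest ratios of MI-E over MI, the 10 and 10 against Arg1-undetected and the 6 and 6 against Gpnmb-high cells that went furthest in both libraries (at least 100 CPM and 10% of cells in the higher group, leaving out rule, mitochondrial, ribosomal, haemoglobin, immunoglobulin and other-cell genes and unnamed models), and genes of the lists. Within lists, genes were picked for description after their values were seen. Of the 12 lowest, 1 is not reported here. Gene positions are from GENCODE M21.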

Additional observations from a re-analysis of the deposited data

Results flagged for a closer look

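Haemoglobin genes went opposite ways in the 2 libraries when members were set beside Arg1-undetected cells. The log2 ratio of Hba-a1 was -3.04 in MI and 0.53 in MI-E, and that of Hba-a2 was -2.78 in MI and 0.66 in MI-E. The level of Hba-a1 was 27.4 CPM in MI members and 232 in MI Arg1-undetected cells, against 4.05 and 2.51 CPM in MI-E. With 1 library per group the difference was not tested.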

How the results depend on the processing

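The ratio of the members' share of all cells, 0.558, was 0.678 when the rule was applied to cells thinned to 3000 UMIs (11.1% in MI, 7.54% in MI-E). Cells under 3000 UMIs were left out of this share. Members were then 891 of 8012 cells in MI and 701 of 9291 in MI-E, against 997 of 8831 and 773 of 12279. The part of the cells left out in this shift was not tested. Counts of genes past 1.5-fold moved with the treatment of low levels: CPM + 10 gave 90 higher and 86 lower, a mean of at least 20 CPM gave 163 and 110 of 4655 genes, and no filter gave 2766 and 3135 of 16249 genes. The other settings left these counts within 1.5 times. Of the genes chosen by rank or as markers, 29 were past 1.5-fold for MI-E over MI and kept their sign in 203 of 203 values. The same settings run on 20 list genes, chosen after seeing the data, kept it in 140 of 140, 135 of them past 1.5-fold. For MI-E over MI, 96 values of all genes chosen by rank or as markers lay outside the main counting interval, and 268 inside. Most of these genes were picked by ratios in the same cells, so kept signs are no independent check. List medians kept their sign in 223 of 234. The list medians that turned sign in some alternative were those of alternative activation, prostaglandin, lipid-handling, immediate early, efferocytosis and arginase genes. Limiting S100a8 and S100a9 to 1%, chosen after seeing the data, gave a macrophage share ratio of 1.10 (0.998 to 1.20), and removing Scrublet's top scores at the expected rate in both libraries, also added later, gave 0.558 of cells and 1.12 of macrophages. No paired analysis was possible because each group has 1 library. Depth limits the genes at a few CPM, whose counting intervals are wide.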

Other observations

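Further lists differed between MI and MI-E members as follows. Arginase and polyamine genes had 2 of 19 higher and 1 lower, with a median of 0.08; the spermine oxidase gene Smox stood at 82.8 CPM in MI and 134 in MI-E, 1.62-fold higher. Transcription factors had 0 of 26 higher and 1 lower (median 0.11), unfolded protein response genes 0 of 11 past 1.5-fold (median 0.26), immediate early and stress genes 1 of 25 higher and 1 lower (median -0.09), and cyclic AMP response genes 3 of 20 higher and 0 lower (median 0.10). Prostaglandin and leukotriene genes had 1 of 13 higher and 1 lower (median -0.05): the prostaglandin receptor gene Ptger4 stood at 17.9 and 28.6 CPM, 1.59-fold higher (log2 ratio 0.47 with CPM + 10, under 1.5-fold), and Ltc4s at 61.5 and 32.0 CPM, 1.92-fold lower.

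Among genes of secreted growth factors, Inhba, which encodes the activin A subunit, stood at 14.6 CPM in MI and 36.2 in MI-E members, 2.48-fold higher (2.05 to 3.01), and Igf1 at 30.02 and 14.9 CPM, 2.01-fold lower (1.65 to 2.47). Ereg, a neighbour of Areg on chromosome 5, stood at 4.18 and 8.11 CPM, 1.94-fold higher (1.33 to 2.86), on 47 and 76 UMIs; with CPM + 10 its log2 ratio was 0.35, under 1.5-fold. The lectin gene Mgl2 stood at 10.8 and 3.41 CPM, 3.18-fold lower (2.14 to 4.85), with a log2 ratio of -0.64 with CPM + 10 in place of -1.42. The cystine transporter gene Slc7a11 stood at 177 and 291 CPM, 1.65-fold higher.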
